A study of Mus musculus with 4 samples.

Results

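The AP-1 and immediate early genes Fos, Fosb, Jun, Junb, Jund, Egr1, Atf3, Ier2, Dusp1 and Zfp36 were taken by symbol from both count matrices, and all 10 were found among the 32285 genes. The cells were lineage-negative, Sca-1-positive, Kit-positive bone marrow cells of 2 male Tppp3CreER LSLTdTomato mice at 3 months of age. Both mice had been given tamoxifen on days P0 and P3 after birth, and all groups shared the Cre allele, the reporter allele and the tamoxifen. The tdTomato-positive gate and the tdTomato-negative gate of each mouse were hashed as separate tubes, and each of these 4 tubes was divided between the GEM-X and v3.1 chemistries of 10x Genomics. CreER driven from Tppp3 marks cells that had Tppp3 promoter activity while tamoxifen was present, together with their descendants, so a negative cell may also be one in which recombination did not take place. Each group holds 2 animals, each chemistry is 1 library, and p-values rest on these few tubes and on variance pooled across genes.

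AP-1 is a transcription factor built from pairs of basic leucine zipper proteins, in which a Jun protein pairs with another Jun protein, a Fos protein or an ATF protein. Growth factors, cytokines and stress act through MAP kinases and serum response factor, and transcribe Fos, Jun and Egr1 within a short time without new protein synthesis. Zfp36, which promotes decay of AU-rich mRNAs, and Dusp1, a phosphatase of MAP kinases, are induced in the same response and shorten it. In blood stem cells Egr1 is known for a role in quiescence and retention in the marrow, and immediate early genes in general are known to respond to tissue dissociation as well.

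RefSeq start sites (build GRCm38.p6) matched 8 of the 10 genes, and Ier2 and Egr1 are named only. The 250 bases before the start site are shown for 3 genes that were higher in the positive gate, Fos, Fosb and Jun, and for Junb, a Jun family gene that did not pass the gate test. They lie at chr12:85473640-85473889 (Fos, plus strand), chr7:19310046-19310295 (Fosb, minus strand), chr4:95052223-95052472 (Jun, minus strand) and chr8:84978749-84978998 (Junb, minus strand). Capitals mark matches on either strand to TGACG, the half-site of the cAMP response element, to TGACATCA, an AP-1-like element, and to the TATA box TATAAA.
Fos: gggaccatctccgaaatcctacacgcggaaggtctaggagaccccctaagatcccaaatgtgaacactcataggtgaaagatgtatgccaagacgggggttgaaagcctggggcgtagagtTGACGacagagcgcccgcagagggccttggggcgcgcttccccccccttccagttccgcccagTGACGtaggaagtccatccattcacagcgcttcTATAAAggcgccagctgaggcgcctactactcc
Fosb: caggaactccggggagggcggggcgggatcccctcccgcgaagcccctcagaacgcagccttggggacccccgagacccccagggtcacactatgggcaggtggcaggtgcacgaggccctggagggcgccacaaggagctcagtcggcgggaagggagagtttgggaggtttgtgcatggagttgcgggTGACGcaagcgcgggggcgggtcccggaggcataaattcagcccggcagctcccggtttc
Jun: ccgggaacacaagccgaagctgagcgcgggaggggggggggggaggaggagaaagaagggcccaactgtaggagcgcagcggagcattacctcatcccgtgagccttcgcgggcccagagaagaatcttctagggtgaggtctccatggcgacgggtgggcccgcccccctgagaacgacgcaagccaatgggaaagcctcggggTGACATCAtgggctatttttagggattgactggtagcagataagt
Junb: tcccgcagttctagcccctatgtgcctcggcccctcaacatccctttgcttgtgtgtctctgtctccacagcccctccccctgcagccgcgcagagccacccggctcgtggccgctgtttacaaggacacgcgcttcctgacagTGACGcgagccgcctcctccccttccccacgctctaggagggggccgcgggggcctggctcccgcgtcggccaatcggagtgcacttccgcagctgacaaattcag

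In the Fos window TGACG stood 129 to 125 and 66 to 62 bases before the start, and TATAAA 33 to 28 bases before it. Fosb had TGACG at 60 to 56 bases, Junb had it at 106 to 102 bases, and Jun had TGACATCA at 45 to 38 bases. TGACG occurred in 17.8% of the 32851 RefSeq promoter windows of this length, TATAAA in 12.4% and TGACATCA in 2.93%. The full element TGACGTCA, found in 1.55% of windows, was present before Dusp1 at 143 to 136 bases and overlaps a TGACG match on each strand. The CArG box of serum response factor, found in 1.47% of windows, was matched before Zfp36 at 58 to 49 bases. TGANTCA, the AP-1 site present in 6.75% of windows, had no match in any of the 8 windows. So Fos, Fosb and Jun had no searched element common to all of them, and Junb carried the same half-site as Fos and Fosb. A match is a run of letters, not a measured site.

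Cells with exactly 1 hashtag numbered 17986 with GEM-X and 14344 with v3.1, 32330 in all, and the chemistries shared 0 barcodes. The tubes held 3867 positive and 12144 negative cells of mouse 1 and 3933 and 12386 of mouse 2, with median depths of 7731 to 9315 UMIs and median mitochondrial shares of 2.14% to 2.16%. Of the sort antigens, Kit had a UMI in 89.0% of cells and Ly6a, the gene of Sca-1, in 37.3%, while the lineage genes Cd3e and Ly6g had one in at most 0.0247% and Itgam had one in 18.0%. One cluster of 636 cells, called c12 below, stood apart with a median of 2525 UMIs and 7.37% mitochondrial UMIs. To compare shares of cells with a UMI, 31321 cells were thinned to 3000 UMIs and 1009 shallower cells were left out.

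In the mm10 annotation the AP-1 subunits lie apart: Fos (ENSMUSG00000021250) at chr12:85473890-85477273, Fosb (ENSMUSG00000003545) at chr7:19302696-19310051, Jun (ENSMUSG00000052684) at chr4:95049034-95052222, Junb (ENSMUSG00000052837) at chr8:84974484-84978718 and Jund (ENSMUSG00000071076) at chr8:70698949-70700616. The stress factor Atf3 (ENSMUSG00000026628) at chr1:191170296-191218039 and the zinc finger factor Egr1 (ENSMUSG00000038418) at chr18:34859823-34864984 lie elsewhere. The remaining members are Ier2 (ENSMUSG00000053560) at chr8:84661331-84662852, Dusp1 (ENSMUSG00000024190) at chr17:26505590-26562128 and Zfp36 (ENSMUSG00000044786) at chr7:28376784-28380253. Junb, Jund and Ier2 share chromosome 8, and Fosb and Zfp36 share chromosome 7.

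The members were sparse in single cells. Levels are given as CPM, a gene's UMIs scaled to equal totals. In thinned cells a UMI of Jund was found in 23.1%, of Jun in 16.1%, of Ier2 in 15.1%, of Junb in 8.19% and of Zfp36 in 4.49%. Egr1 (2.95%), Dusp1 (2.84%), Fos (1.75%) and Fosb (1.29%) were found in fewer cells. Atf3, an ATF protein of the stress response, had 34 UMIs in 31 of all 32330 cells, did not pass the filter on low counts in any main test, and is not compared further. Of thinned cells with a UMI, between 76.4% (Jun) and 96.2% (Dusp1) had just 1. A few cells held many: before thinning the highest count in 1 cell was 58 for Jun and 26 for Egr1, against 7 for Fos and 7 for Dusp1. The variance over the mean, which is 1 for counts spread at random, was 1.65 for Egr1 and 1.49 for Jun and lowest for Dusp1 at 1.06, all in thinned cells. This ratio depends on abundance and pools the tubes. By another measure, the 1% of thinned cells with the most UMIs of the gene held 78.8% of Fosb, 61.3% of Fos, 47.9% of Egr1 and 15.7% of Jun UMIs, a different order. This share also depends on abundance: these genes fall in the order of how few thinned cells have a UMI. It therefore does not show that a gene is concentrated in few cells beyond its rarity. No class of these cells is known to lack the genes, so the share that free RNA gives was not measured.

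**Figure D1:**
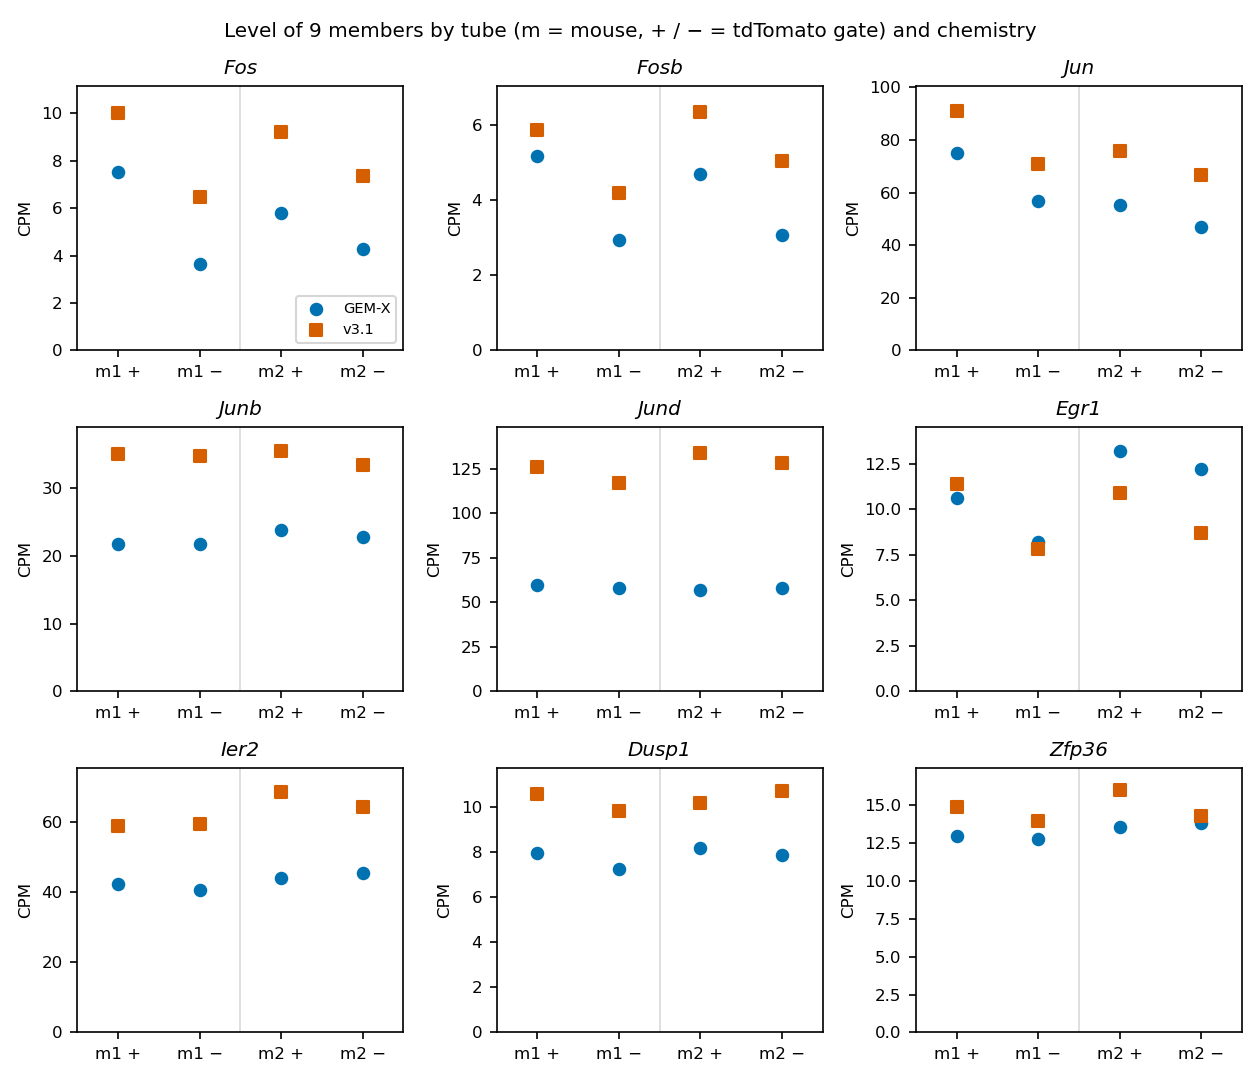
CPM (axis from 0) of 9 members in each tube (m1 and m2, mouse 1 and 2; + and −, tdTomato gate), with GEM-X as circles and v3.1 as squares. For Fos, Fosb, Jun and Egr1 the positive tube lies above the negative tube of the same mouse in both chemistries, and Jund lies at 56.9 to 59.5 CPM with GEM-X against 117 to 134 with v3.1.

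The gate comparison asks how cells marked through Tppp3 at birth differ from unmarked cells of the same animal. Over all cells, 4 of the 9 members tested rose in the tdTomato-positive gate and 0 fell, while 0.555% of all 16586 genes passed in that direction and 0.241% in the other. They were Fos and Fosb, both Fos proteins, Jun, their partner, and Egr1, a zinc finger factor of the same early response. Levels below are in CPM, summed over cells and both chemistries. Each fold is edgeR's log2 fold change over 2 positive and 2 negative tubes, with its SE and Benjamini-Hochberg adjusted p. This SE and p come mainly from variance that edgeR pools across genes (prior degrees of freedom 49.2, and infinite in the HSC-like cells below). They do not measure how animals vary, which 2 mice cannot give. The log2 difference was 0.83 in mouse 1 and 0.37 in mouse 2 for Fos, and 0.38 and 0.21 for Jun.

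Fos stood at 8.53 CPM in the positive and 4.78 in the negative tube of mouse 1, and at 7.15 and 5.53 in those of mouse 2. It was higher in both positive tubes than in both negative tubes, by 0.63 ± 0.09 (edgeR adjusted p = 8.19e-06). Within mouse and chemistry its log2 difference was 0.33 to 1.05, above 0 in 4 of 4 sets.

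Fosb stood at 5.45 and 3.44 CPM in mouse 1 and at 5.34 and 3.87 in mouse 2, again with no overlap between the gates. Its fold was 0.58 ± 0.11 (edgeR adjusted p = 7.94e-04), with values of 0.34 to 0.82 in the 4 sets. The positive tubes of the 2 mice were close to each other for Fosb, and the spread lay mostly in the negative tubes and the chemistries.

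Jun stood at 81.5 and 62.4 CPM in mouse 1 and at 63.4 and 54.97 in mouse 2. The gates did not overlap, but the positive tube of mouse 2 lay only just above the negative tube of mouse 1. The fold was 0.31 ± 0.04 (edgeR adjusted p = 1.90e-08), with 0.18 to 0.40 in the 4 sets.

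Egr1 stood at 10.9 and 8.06 CPM in mouse 1 and at 12.3 and 10.8 in mouse 2. The positive tube of mouse 1 and the negative tube of mouse 2 were nearly level, so the difference is one within animals. The fold was 0.32 ± 0.07 (edgeR adjusted p = 0.00559), with 0.11 to 0.54 in the 4 sets.

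The other Jun proteins and the other members did not pass the test. Junb, which often counteracts Jun, stood at 27.1 and 26.9 CPM in mouse 1 and 28.4 and 27.1 in mouse 2, a fold of 0.05 ± 0.05. Jund, the Jun protein that is steadily present in resting cells, stood at 86.5 and 81.7 CPM and at 87.5 and 86.7 CPM, a fold of 0.06 ± 0.03 (edgeR adjusted p = 0.811). Ier2, a small nuclear protein of the early response, had 0.03 ± 0.04, Dusp1 0.07 ± 0.07 and Zfp36 0.06 ± 0.06 (each edgeR adjusted p = 0.999). These values are positive for all 5 genes and each is within 2 SE of 0.

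The other lists of the pathway had no call, which at a background of 0.796% of all genes in either direction is not a result about these lists. Of the other AP-1 and bZIP genes 0 of 21 tested passed in either direction, of the other immediate early genes 0 of 34, of the upstream kinases and serum response factor genes 0 of 15, and of the heat shock genes 0 of 11. Their median log2 folds lay between -0.00223 and 0.02, with 0.00171 over all genes and 0.07 over the 9 members. Of the heat shock genes 10 of 11 had a fold above 0. The calls depend on pairing the tubes by mouse: with no replicate block 0 of the 4 genes passed (edgeR). A fit that leaves out 1 tube also has no block, so it cannot show whether the calls rest on 1 tube. The folds with no block and all 4 tubes were 0.62 for Fos, 0.58 for Fosb, 0.32 for Jun and 0.31 for Egr1. DESeq2 kept Jun alone, with folds of 0.61, 0.57, 0.30 and 0.32 in that order. GEM-X counts alone kept none, with folds of 0.77, 0.73, 0.34 and 0.25, and v3.1 counts alone kept Jun, with 0.49, 0.42, 0.28 and 0.44. Fosb and Egr1 were lost without c12 (adjusted p = 0.0638 and 0.191) or without the cells of highest Scrublet score (0.0766 and 0.241), while their folds were 0.58 and 0.58 for Fosb and 0.34 and 0.32 for Egr1 (edgeR).

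**Figure D2:**
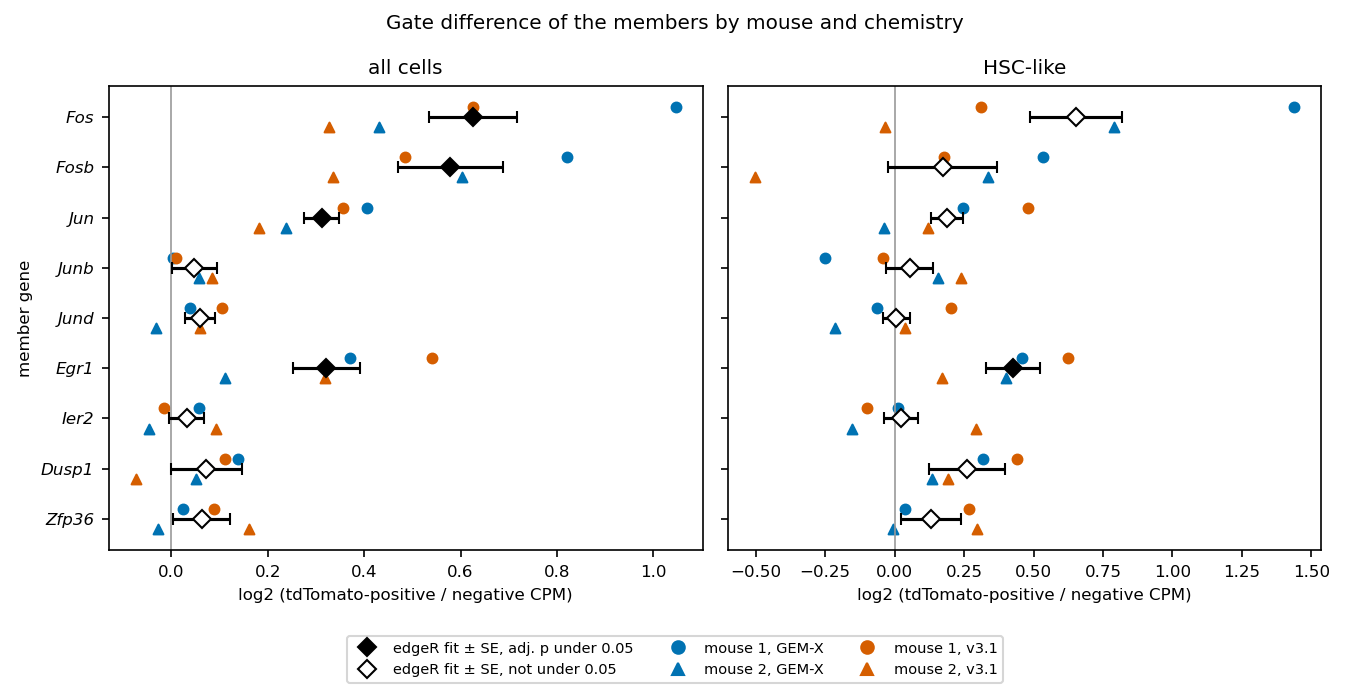
The log2 ratio of tdTomato-positive to tdTomato-negative CPM for 9 members over all cells (left) and haematopoietic stem cell (HSC)-like cells (right, a wider axis). Diamonds are the edgeR fit with its SE, filled where the adjusted p was under 0.05, circles and triangles are mouse 1 and mouse 2, and colours are the chemistries; over all cells the 4 sets of Fos, Fosb, Jun and Egr1 all lie above 0.

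More cells had a UMI of these genes in the positive gate. Whether cells with the RNA were more frequent or held more RNA each cannot be told apart at these counts. In cells thinned to 3000 UMIs, Fos was found in 2.56% (95% exact interval 2.08% to 3.12%) of positive and 1.44% (1.23% to 1.67%) of negative cells of mouse 1, and in 2.01% (1.59% to 2.51%) and 1.73% (1.502% to 1.98%) of those of mouse 2. The intervals cover counting error only, and those of mouse 2 overlap. Jun was found in 20.6% and 16.3% of cells in mouse 1 and in 16.3% and 14.4% in mouse 2. Fosb was found in 1.81% and 1.01%, and in 1.75% and 1.27%. Egr1 was found in 3.41% and 2.52%, and in 3.74% and 2.99%. For these 4 genes the share was higher in the positive gate in 4 of 4 mouse and chemistry sets, and without thinning that held for 3 of them, as Egr1 was then higher in 3 of 4 sets. For Junb, Jund and Ier2 the thinned share was higher in 2 of 4 sets, and for Dusp1 and Zfp36 in 3 of 4. With 2 tubes against 2, an exact two-sided permutation test of a share cannot go below p = 0.33, and none was run.

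The gates differed in makeup in both mice. Neutrophil-like cells were 3.44% of its positive and 1.31% of its negative tube (0.99% and 0.86% in mouse 2), and the granulocyte-monocyte markers summed to 3515 and 2152 CPM (1647 and 1645 in mouse 2), with 10 of the 15 such genes risen over all cells. In mouse 2 megakaryocyte-platelet-like cells were 10.0% of the positive and 7.69% of the negative tube (5.97% and 5.66% in mouse 1), and erythroid-like cells were 0.381% and 0.767% (0.388% and 0.346%). Over all cells 4 of 12 megakaryocyte-platelet genes and 2 of 8 genes of Vwf-positive HSCs rose, and 5 of 14 erythroid genes fell (edgeR). Jun and Egr1 were below their overall level in the neutrophil-like cells, where Egr1 stood at 0.75 and Jun at 17.3 CPM. Fos stood at 5.13 CPM there, from 55 UMIs, with a Poisson interval of 3.86 to 6.67 CPM. That interval includes the Fos level of the whole negative tubes (4.78 and 5.53 CPM) and lies below that of the positive tubes (8.53 and 7.15 CPM). A lower level of Fos in these cells is therefore not established. When the clusters of each positive tube were weighted by their UMI share in the matched negative tube, the log2 difference of Fos was 0.87 in mouse 1 and 0.38 in mouse 2, against 0.83 and 0.37 without weighting. The weighted values were 0.73 and 0.44 for Fosb, 0.45 and 0.19 for Jun, and 0.53 and 0.17 for Egr1. This weighting evens out the shares of clusters only, and cells within a cluster can still differ between the gates. The part of makeup in the differences was not tested. The heat shock genes summed to 6056 and 5903 CPM in mouse 1 and to 5673 and 5734 in mouse 2.

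The difference was spread over clusters. In the 13 clusters with at least 50 cells in every tube, Jun was higher in the positive tube of both mice in 10 and lower in both in 0. Of the clusters with a ratio in both mice, Fos was higher in both mice in 9 of 11, Fosb in 7 of 10 and Egr1 in 6 of 10, and each was lower in both in 0. Junb was higher in both mice in 3 of 12 clusters and lower in both in 4, and Zfp36 in 5 and 4 of 12. Jund was higher in both in 5 and lower in both in 2 of 13, Ier2 in 5 and 1 of 13, and Dusp1 in 5 and 1 of 12. Clusters of a tube share its animal and library and are not replicates.

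Clusters c0 and c2, 7551 cells in all, were HSC-like: 14 of 14 detected HSC markers were raised in c0 and 11 in c2. In these cells Egr1 rose, and it was the member called of 9 tested, while of 13700 genes 0.0292% passed in that direction, 0.00730% in the other and 0.0365% in either. Egr1 stood at 37.6 CPM in the positive and 26.3 in the negative HSC-like cells of mouse 1, and at 31.7 and 25.1 in those of mouse 2, so the gates did not overlap. The fold was 0.43 ± 0.10 (edgeR adjusted p = 0.0249), with 0.17 to 0.62 in the 4 mouse and chemistry sets. In c0 alone it was 48.0 and 35.6 CPM in mouse 1 and 42.0 and 32.3 in mouse 2. In c2 it was 24.2 and 13.2 CPM in mouse 1 and 18.2 in both gates of mouse 2. The make-up of the class also differed, as c0 was 594 of 1010 positive and 1838 of 3494 negative HSC-like cells in mouse 2, and 416 of 703 and 1464 of 2344 in mouse 1. Fits that leave out 1 tube have no replicate block and cannot show whether the call rests on 1 tube. The call was lost with no replicate block, with DESeq2 and with v3.1 counts alone, where 0 members were called in each. GEM-X counts alone called Fos and not Egr1. It was lost also without the cells of highest Scrublet score and with the HSC-like clusters of resolution 0.5, and clusters made with the pathway genes called Jun in its place.

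The Fos proteins and Jun did not pass in the HSC-like cells. Fos stood at 11.2 and 5.62 CPM in mouse 1 (58 and 99 UMIs) and at 10.8 and 8.11 in mouse 2 (71 and 193 UMIs), a fold of 0.65 ± 0.17 (edgeR adjusted p = 0.0900). Jun stood at 112 and 88.4 CPM in mouse 1 and at 81.4 and 79.9 in mouse 2, a fold of 0.19 ± 0.06 (edgeR adjusted p = 0.415). In mouse 1 Jun was clearly higher in the positive gate and in mouse 2 the gates were nearly level. Dusp1, the feedback phosphatase, had 16.0 and 12.3 CPM, and 13.5 and 12.2 CPM, above 0 in 4 of 4 sets with a fold of 0.26 ± 0.14 (edgeR adjusted p = 0.981). Fosb had 0.17 ± 0.20, and Junb, Jund, Ier2 and Zfp36 lay between 0.01 and 0.13. Within the HSC-like cells the HSC markers summed to 4592 and 4582 CPM in mouse 1 and to 4585 and 4471 in mouse 2, and the heat shock genes to 4328 to 4404 over the 4 tubes.

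In the megakaryocyte-platelet-like cells (c7, 2266 cells, led by Pf4 and Cavin2) Jun rose, 1 of 9 members tested, while of 12098 genes 0.306% passed in that direction, 0.0579% in the other and 0.364% in either. Jun stood at 111 and 84.5 CPM in mouse 1 and at 74.2 and 53.9 in mouse 2. The fold was 0.44 ± 0.08 (edgeR adjusted p = 1.60e-04), with 0.08 to 0.64 in the 4 sets, and it was lost with no replicate block. Leaving out a tube was not run in this class. Fosb stood at 11.1 and 5.69 CPM and at 8.16 and 5.11 CPM, a fold of 0.82 ± 0.26 (edgeR adjusted p = 0.209), with 30 to 50 UMIs in each tube. Of 28 other immediate early genes tested there 1 rose, Btg2, an antiproliferative gene, by 0.55 ± 0.14 (edgeR adjusted p = 0.0473), named after its value was seen. In the same cells 4 of 12 megakaryocyte-platelet markers rose with the gate (Pf4, Rab27b, Plek and Cd9), and their part in the Jun result was not tested.

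The lymphoid-like cells (c10, 1686 cells) also had 3 of 3 detected macrophage-dendritic markers raised, and there 0 of 8 members tested passed, with 0.00906% of 11038 genes higher, 0.0181% lower and 0.0272% in either direction (edgeR). Their unadjusted p was under 0.05 for 3, Jun, Fos and Egr1. Jun stood at 85.8 and 56.9 CPM in mouse 1 and at 35.3 and 47.0 in mouse 2, so the mice went opposite ways, and mouse 2 had 75 positive cells there. Whether gate differences of a member differ between classes was not tested.

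Between chemistries 75.0% of 15218 genes passed, 38.4% higher with GEM-X and 36.6% lower. All 9 members tested passed, 8 of them lower with GEM-X and Egr1 higher, so the count itself is near what most genes did, while the direction was lower for 8 of 9. Jund stood at 59.5, 57.9, 56.9 and 58.2 CPM with GEM-X and at 126, 117, 134 and 128 with v3.1, in the positive and negative tubes of mouse 1 and then of mouse 2. Jund was lower with GEM-X in 4 of 4 tubes with no overlap, a log2 difference of -1.08 ± 0.03 (edgeR adjusted p = 3.32e-18). Fos differed by -0.68 ± 0.07, Junb by -0.60 ± 0.04, Ier2 by -0.51 ± 0.03, Fosb by -0.47 ± 0.09, Dusp1 by -0.39 ± 0.05, Jun by -0.37 ± 0.03 and Zfp36 by -0.11 ± 0.05. These 7 were lower with GEM-X in 4 of 4 tubes. For Zfp36 the edgeR adjusted p was 0.0454, and it did not pass with no low-count filter, with DESeq2, or without the positive tube of either mouse or the negative tube of mouse 1. Egr1 stood at 10.6, 8.22, 13.2 and 12.2 CPM with GEM-X and at 11.4, 7.81, 10.9 and 8.72 with v3.1. It was higher with GEM-X in 3 of 4 tubes (0.24 ± 0.07, edgeR adjusted p = 0.00452), by 0.28 and 0.48 in the tubes of mouse 2 and by -0.10 and 0.07 in those of mouse 1, and it did not pass with DESeq2 or without the negative tube of mouse 2. With no block on tube, Fosb, Jun, Egr1 and Zfp36 did not pass. The level of a member in 1 chemistry is therefore not comparable with the other without this shift, and chemistry, library and Cell Ranger version cannot be told apart.

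The gate difference did not pass a test of dependence on chemistry for any of the 9 members (0 called by edgeR and 0 at an unadjusted p under 0.05, against 0.0378% of 15862 genes called as larger with GEM-X, 0.00630% as smaller and 0.0441% in either direction). The nearest was Fos, whose gate difference was larger with GEM-X by 0.28 ± 0.14 (edgeR, 4 tubes in each chemistry, unadjusted p = 0.0545). In the HSC-like cells 0 of 12972 genes passed, and 2 members had an unadjusted p under 0.05. Fos there was larger with GEM-X by 0.96 ± 0.31 and Jund smaller by 0.27 ± 0.09 (edgeR adjusted p = 0.988 for both). For Fos the HSC-like values were 12.6 and 4.65 CPM in mouse 1 and 11.05 and 6.39 in mouse 2 with GEM-X. With v3.1 they were 8.96 and 7.22, and 10.4 and 10.7, so the log2 differences were 1.44 and 0.79 with GEM-X and 0.31 and -0.03 with v3.1.

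Among cell classes the summed level of the members was high in HSC-like and B cell-like cells and low in cycling, neutrophil-like and erythroid-like cells. The sum is led by Jund, Jun and Ier2, with 27365, 20134 and 16362 UMIs over all cells, against 1869 for Fos and 1310 for Fosb. Clusters were built without these genes but from the same cells, so the levels are a description with no test. Cluster c0 had the highest summed level of the 13 clusters with at least 50 cells in every tube, 452 CPM as the median of 4 tubes (436 to 496), and did not overlap the next, c1, at 340 to 418. The lowest was c6, led by the mitotic genes Aspm and Cenpf, at 156 CPM (134 to 190), next to c9, led by the S phase genes Rrm2 and Tk1, at 158 CPM (144 to 188). These 2 do not differ beyond their spread. The smaller neutrophil-like (437 cells) and erythroid-like (167 cells) clusters stood at 135 CPM (129 to 159) and 137 CPM (123 to 153), and the B cell-like cluster (194 cells) at 408 CPM (348 to 492). The HSC-like class as a whole stood at 399 to 452 CPM over the tubes, at 409 to 454 with clusters made with the pathway genes and at 406 to 457 at resolution 0.5. The B cell-like range overlaps it, but rests on 19 cells in the positive tube of mouse 1 and 38 in that of mouse 2. The B cell-like sum came mainly from Jund (168 CPM) and Jun (112 CPM), while Junb stood at 13.4 CPM there.

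**Figure D3:**
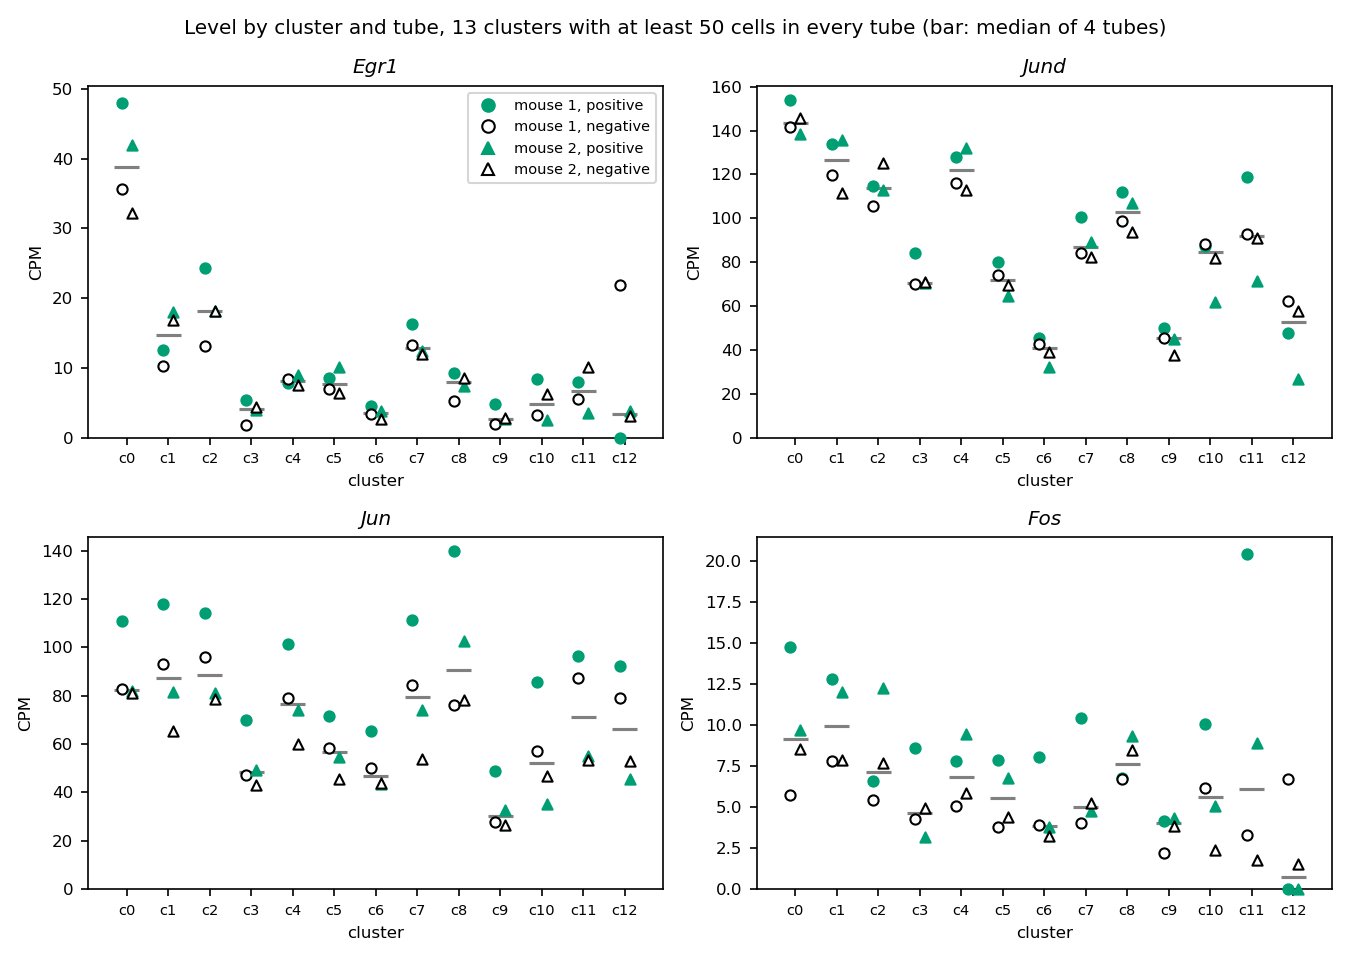
CPM (from 0) of Egr1, Jund, Jun and Fos in the 13 clusters with at least 50 cells in every tube; circles and triangles are mouse 1 and 2, filled symbols the positive gate, and grey bars the median of 4 tubes. Egr1 and Jund are highest in c0 in all 4 tubes, while Jun and Fos have overlapping tubes among their highest clusters.

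Egr1 had the steepest pattern. In c0 it stood at 48.0, 35.6, 42.0 and 32.3 CPM in the 4 tubes and did not overlap the next cluster, c2, at 13.2 to 24.2 CPM. Its lowest of the 13 clusters with at least 50 cells in every tube was c9, at 1.98 to 4.77 CPM and overlapping c6. The ratio between the medians of c0 and c9 was 14.2. In thinned cells Egr1 had a UMI in 8.04% of c0 cells and in 0.80% of c9 cells. In neutrophil-like cells it had one in 0 of 435 at 3000 UMIs, which allows a share of up to 0.690% at that depth. Before thinning, at a median of 25447 UMIs, the 437 neutrophil-like cells held 8 Egr1 UMIs.

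Among the 13 clusters with at least 50 cells in every tube, Jund and Ier2 were also highest in c0, with no overlap with the next cluster. Outside these 13, the B cell-like cluster had Jund at 147 to 200 CPM. Jund stood at 138 to 154 CPM in c0, at 112 to 136 in c1, and at 32.1 to 45.4 in c6. Ier2 stood at 77.2 to 88.6 CPM in c0 and at 59.5 to 76.7 in c4. Junb (41.5 to 52.5 CPM) and Dusp1 (12.9 to 17.5) were highest in c0 as well, but the next clusters overlapped.

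Within the same 13 clusters, Fos, Fosb, Jun and Zfp36 were highest elsewhere, each overlapping the next cluster. Fos was highest in c1 (7.79 to 12.8 CPM) and Zfp36 also (23.2 to 31.7). Fosb was highest in the megakaryocyte-platelet-like c7 (5.11 to 11.1 CPM). Jun was highest in c8, led by Gna14 and Selp (76.1 to 140 CPM), and lowest in c9 (26.5 to 48.7). Of the smaller clusters, the B cell-like one had Jun at 94.8 to 209 CPM and the neutrophil-like one at 12.7 to 19.7 CPM. So the genes that rose with the gate over all cells did not share 1 cluster of highest level: Egr1 followed the HSC-like c0, and Jun and Fos were spread over several clusters. In B cell-like cells Jun (112 CPM) and Jund (168 CPM) were high while Egr1 was 5.36 CPM, from 10 UMIs.

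Co-expression in single cells was weak and mostly positive. Within each tube and chemistry (8 sets), Pearson's r of log1p counts was taken over thinned cells for the 36 pairs of the 9 members. The median pair had r = 0.0316, with 0.0259 to 0.0369 over the sets, and 16 pairs were above 0 in 8 of 8 sets. Points are cells that share a library, and counts of 0 or 1 hold r near 0, so r is a description. It was 0.0214 at 2000 UMIs and 0.0423 at 5000 UMIs, and 0.0189 in HSC-like cells alone. In the HSC-like cells 6 of the 36 pairs were above 0 in 8 of 8 sets.

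The highest pair was Egr1 with Ier2, at a median r of 0.0996 (0.0350 to 0.148). Jun with Jund had 0.07 and Junb with Egr1 0.07. Dusp1 with Zfp36, the pair of feedback genes, had a median r of -0.000173, and Fosb with Ier2 -0.000165.

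Shares of cells show the same with numbers of cells. Both Fos and Fosb were found in 36 cells, against 7.61 from the product of their shares in each set, a ratio of 4.73 and the highest of the 36 pairs. Fos and Jun were found together in 162 cells against 91.8, Fosb and Jun in 133 against 67.0, Egr1 and Ier2 in 284 against 141, and Junb and Egr1 in 160 against 76.1. Fosb was found in 6.56% of cells with Fos and in 1.20% of cells without, and Jun in 29.5% and 15.8%. Ier2 was found in 30.7% of cells with Egr1 and in 14.7% of cells without. Each of these 3 differences held in 8 of 8 sets. Egr1 was found in 5.83% of cells with Fos and in 2.90% of cells without, higher in 7 of 8 sets. In HSC-like cells alone Fos and Fosb were found together in 12 cells against 3.04, with r above 0 in 5 of 8 sets.

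Counting members per cell over all sets pooled, 47.6% of thinned cells had a UMI of none of the 10, against 43.9% if they were spread independently. UMIs of 5 or more members were found in 45 cells (0.144%), against 0.0152% under independence. Both expected values use pooled shares, which differ between chemistries. Within single sets the share with 5 or more was 4.68 to 16.5 times that under independence. These 45 cells lay in all 8 sets, with 2 to 11 in each. The share of such cells in each set was 0.0447% to 0.300% and was not compared between gates, since 2 to 5 cells carry it in the positive sets.

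**Figure D4:**
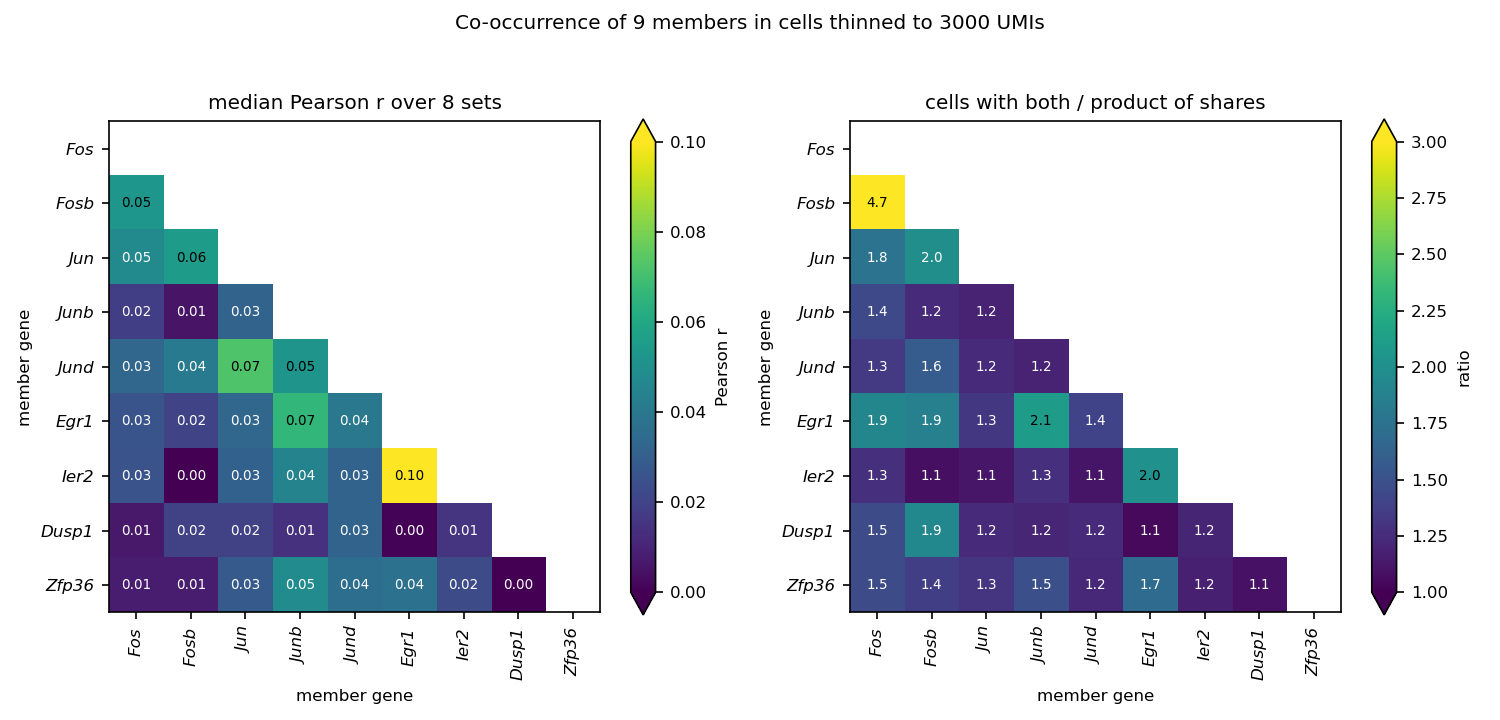
For each pair of 9 members, the median over 8 tube and chemistry sets of Pearson's r in thinned cells (left), and the number of cells with both genes over the number from the product of their shares (right). The largest r is Egr1 with Ier2 and the largest ratio is Fos with Fosb at 4.73.

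The cells with more UMIs of the summed members, mostly those of Jund, Jun and Ier2, also had more HSC marker UMIs and fewer cycle UMIs. Over thinned cells the summed members had a median r of 0.168 with the summed HSC markers (0.146 to 0.229 over 8 sets) and of 0.168 with the other immediate early genes. With the G1/S genes r was -0.170, with the G2/M genes -0.189, with the heat shock genes -0.119 (-0.137 to -0.0950) and with the log10 depth before thinning -0.197. With the mitochondrial share it was -0.0253. Taken alone, Fos had a median r of 0.0244 with the HSC markers (-0.0170 to 0.0652) and Fosb 0.0203 (-0.00519 to 0.0328). Both ranges cross 0, while the other members compared were above 0 in every set. Depth, cycle and class move together in these cells, and the part of each was not tested.

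Of 9485 other genes with a UMI in at least 2% of thinned cells in every set, the median r with the summed members was 0.00207, and 8 genes were above 0.1 as a mean over the sets. They were the nuclear RNA Malat1 (0.156), the interferon-induced membrane gene Ifitm1 (0.139), the HSC transcription factor genes Hlf (0.133), Mecom (0.114) and Meis1 (0.107), Txnip (0.109), Il1rapl2 (0.102) and Lmo2 (0.102), and Gimap6 and Gcnt2 (0.0995 and 0.0994) followed. Hlf, Mecom and Meis1 are among the markers that named the HSC-like clusters. The lowest r in any set among these 10 genes was 0.0346, for Lmo2, so all 10 were above 0 in 8 of 8 sets.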

How the data were processed

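The data were gene expression and hashtag libraries of sorted mouse marrow cells, 1 pair for each of the GEM-X and v3.1 chemistries. The deposited values are raw UMI counts per gene and cell barcode, for barcodes called as cells, and per the file headers Cell Ranger 8.0.1 made the GEM-X matrix and 7.1.0 the other. Per the submitters' processing notes the version was 7.0.0 and the build mm10. The chemistry of each matrix was inferred from its name and version, so version and chemistry cannot be told apart. The 10 members and all gene lists were chosen with earlier results of these data known.

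Barcodes with under 1000 genes or over 10% mitochondrial UMIs were left out. Each hashtag was called at a posterior of 0.5 in a Gaussian mixture (scikit-learn 1.9.0), and only singly hashed cells entered the comparisons. The deposited pairing of hashtags with mouse and gate gave 4 tubes. Scrublet (scanpy 1.11.5) called 0 cells at its own threshold, and doublets within a tube remained. Cells were clustered (2000 variable genes, 30 principal components, 30 neighbours, Leiden resolution 1, leidenalg 0.10.2) without the members, the other pathway genes and the cell cycle genes. Clusters were named "-like" if 3 or more markers, making up 66.7% of the detected ones, stood 0.5 or more (log2) above the other cells. Counts were summed per tube and tested with edgeR 4.0.16 (TMM, low-count filter, quasi-likelihood test) with mouse as a block, since both tubes of a mouse come from 1 animal. Benjamini-Hochberg adjustment ran over all genes tested, with a threshold of 0.05. The gate fit has 4 sums and leans on a spread shared over genes. The chemistry test blocked on tube and covers the spread between tubes, since each chemistry is 1 library. For shares and co-expression each cell was thinned to 3000 UMIs. The gate and chemistry fits were tested on simulated counts with the same spread for every gene and no difference between mice. Such counts cannot show how the fits do where mice differ. All 10 members are named; of other pathway genes, those past the gate test over all cells were to be named, which were 0; and the 10 genes whose cell-by-cell pattern was most like the summed members are named. Alternatives were no replicate block, DESeq2 1.42.0, its size factors in edgeR, no low-count filter, each chemistry alone, no floor on the dispersion, a hashtag posterior of 0.99, and each tube left out. Others were added after seeing the data: the highest Scrublet scores left out, 1 cluster left out, and the HSC-like cells from other clusterings.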

Additional observations from a re-analysis of the deposited data

Results flagged for a closer look

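Over all cells and in the HSC-like, megakaryocyte-platelet-like and lymphoid-like classes, there were 3 cases in which the gate difference of a member went one way in mouse 1 and the other way in mouse 2, with both chemistries giving the same sign within each mouse. The difference between the mice was not tested, since each mouse gave 1 tube per gate. Jun in the lymphoid-like cells was 0.59 higher in the positive tube of mouse 1 and 0.41 lower in that of mouse 2 (log2 -0.41), where the positive tube held 75 lymphoid-like cells and 28 Jun UMIs. With GEM-X counts alone the mouse 2 value was -0.01, and with v3.1 counts alone -0.80. Junb in the HSC-like cells had log2 values of -0.13 in mouse 1 and 0.18 in mouse 2. Ier2 in the megakaryocyte-platelet-like cells had values of 0.21 and -0.08. Outside these classes, Fos in cluster c3 had 1.01 in mouse 1 (38 UMIs in the positive and 59 in the negative tube) and -0.65 in mouse 2 (8 and 42 UMIs), again with the same sign in both chemistries. Other single clusters are not listed. Among the 9 members tested for it, 0 had a tube that stood apart from the others in the log2 ratio between chemistries.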

How the results depend on the processing

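The gate calls rest on the mouse block and on the spread that edgeR shares over genes. Of the 4 members called over all cells, the fit with no replicate block called 0 (0 genes of all tested, 102 at an unadjusted p under 0.05), GEM-X counts alone 0 (1 gene), v3.1 counts alone 1 (Jun, 61 genes) and DESeq2 1 (Jun, 6 genes). Leaving out the highest Scrublet scores kept 2 (Fos and Jun, 23 genes), as did leaving out the cluster of few UMIs (24 genes). All 4 were kept with no low-count filter (208 genes), a hashtag posterior of 0.99 (227 genes), DESeq2 size factors (94 genes) and no dispersion floor (132 genes). Leaving out a tube needs a fit without the block, which assumes that the lone tube varies like the others. With all 4 tubes such a fit already called 0, so only folds are given. Over the fits without 1 tube Fos lay between 0.45 and 0.77 and Fosb between 0.51 and 0.64 on the log2 scale. Jun lay between 0.09 and 0.51 and Egr1 between 0.14 and 0.51. For Ier2, which was not called, they gave -0.0165 to 0.0776. In the HSC-like cells the Egr1 call was lost with no replicate block, DESeq2, v3.1 counts alone, the highest Scrublet scores left out and HSC-like clusters at resolution 0.5, each with 0 members called. Genes called there were 0 with no block, 0 with DESeq2, 12 with no filter, 3 with v3.1 counts alone, 3 without the highest scores and 11 with clusters made with the pathway genes, where Jun was the member called. GEM-X counts alone called Fos instead. For fits without 1 tube, which have no block, only folds are given. Of the members not called in the HSC-like cells, Fosb turned to -0.20 with v3.1 counts alone, Junb to -0.000888, Jund to -0.14 and Ier2 to -0.0751 with GEM-X counts alone. Jund also turned to -0.00496 with no filter, -0.0119 without the highest scores and -0.0295 at resolution 0.5, and Ier2 to -0.0208 with clusters made with the pathway genes. Without 1 tube, Jun lay between -0.0476 and 0.427, Junb between -0.127 and 0.185, Jund between -0.0448 and 0.0708 and Ier2 between -0.0465 and 0.0778. For the chemistry, 5 members were called with no replicate block on tube, and 7 to 9 under the other settings run. With no replicate block the megakaryocyte-platelet-like cells had 0 members and 0 genes called, and the lymphoid-like cells 1 gene. The median correlation between members was 0.0214 in cells thinned to 2000 UMIs, 0.0423 at 5000 UMIs and 0.0189 in HSC-like cells alone. Scrublet at its own threshold was not run as an alternative, since it called 0 cells. The cause of these changes was not tested. Depth limits Atf3, with 34 UMIs in all, and Fos, Fosb and Egr1 within classes, as with 18 Fos UMIs in the positive megakaryocyte-platelet-like cells of mouse 2.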
